A study of Mus musculus with 121 samples.

Results

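The substantia nigra (SN) and the prefrontal cortex (PFC) of the same adult wild-type mice were compared across all expressed genes. Every library labelled WT in either region of the AAV-Cre model was taken, 14 of the 121 libraries of the series, from 7 mice (M3576, M3578, M3585, M3587, M3588, M3649 and M3677) with 1 library of each region per mouse. All were males carrying the unmodified Gdnf gene (genotype wt/wt) on a mixed 129Ola/ICR/C57bl6 background. They were 5 to 7 months old and had been given AAV-Cre into the striatum on both sides at 3 to 5 months. Their littermates carried the GDNF cKU allele, so these mice were the controls of that model, with the surgery and the virus but no allele for Cre to act on. No uninjected mice of this age were used here, and the injected region (striatum, STR) lies outside both regions compared. Each sample was a piece of tissue cut from a brain slice and sequenced whole, so a value is a mixture over all cell types in the piece. In such samples fewer cells of a type and less RNA per cell cannot be told apart.

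The SN is a midbrain nucleus. Its dopamine neurons project to the striatum and use a small set of enzymes and transporters to make, package and take up dopamine, while its pars reticulata is made of GABA output neurons under dense fibre tracts. The PFC is a layered cortex of glutamatergic pyramidal neurons with local interneurons. It receives dopamine fibres, but the cell bodies of those fibres lie in the midbrain.

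Reads assigned to genes numbered 11217046 to 17732744 per PFC library (median 15765525) and 16280873 to 20474159 per SN library (median 18992098). Of 24412 genes counted, 14797 passed a filter of 1 cpm (counts scaled to library size) or more in 3 or more libraries and were tested. Gene levels are given in cpm as the lowest, median and highest of the 7 libraries of a region. Differences are log2 fold changes of SN over PFC with their standard error, from a paired fit with the mouse as a block, and a gene is called higher or lower at an adjusted p under 0.1. Where all 7 libraries of a region lay above all 7 of the other, the text says that the regions did not overlap.

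The labelled regions were checked against their markers. Th, the rate-limiting enzyme of dopamine synthesis (Entrez 21823, chr7:142892776-142899966 in mm10), was at 374, 565 and 852 cpm in SN and at 2.69, 7.09 and 37.3 cpm in PFC. Slc6a3, the dopamine transporter (Entrez 13162, chr13:73536747-73578672), was at 772, 1204 and 1730 cpm in SN and at 0.278, 0.768 and 3.74 cpm in PFC. Neurod6, a transcription factor of cortical pyramidal neurons (Entrez 11922, chr6:55677819-55681263), was at 49.3, 59.5 and 85.6 cpm in PFC and at 2.74, 5.21 and 10.3 cpm in SN. All 14 libraries thus carried the markers of the region on their label, and for none of these genes did the regions overlap.

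A few libraries stood apart within their region. The SN library of M3587 held genes of striatal projection neurons. Over a list of 30 such genes, the median level relative to STR libraries of the same mice was 12.3% in M3587 and 3.34% to 4.95% in the other 6 SN libraries, and 28 of the 30 genes were higher in M3587 than in each of the others. PFC libraries held the same genes at 9.97% to 24.1% (median 13.2%) of the STR level, M3587 at 10.2%. Summed over the list (cpm of the library total), SN of M3587 had 2780 cpm against 1129 to 1311 cpm in the other SN libraries, more than in any of them. The same library was the lowest of the 7 SN libraries in 10 of 10 dopamine neuron transcription factors and in 7 of 7 GABA and glycine genes, where it was the lowest in 14.8% of all genes tested. It also had 43.4 cpm summed over 39 Hox genes, the genes that pattern the hindbrain and spinal cord, 888 counts in all with Hoxb3 the most abundant. M3588 had 16.4 cpm (312 counts), the other SN libraries 0.958 to 3.13 cpm, and the PFC libraries 0 to 0.317 cpm, so Hox RNA was most abundant in these 2 SN libraries and present at low levels in the other 5.

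Slc17a7, the vesicular glutamate transporter of cortical neurons, split the SN libraries further. It was at 227 cpm of the library total in M3587, 110 in M3578 and 102 in M3588, and at 4.29 to 15.9 in the other 4. In PFC, the library of M3576 was highest in olfactory bulb genes. A list of them without Th summed to 346 cpm there and to 92.4 to 175 cpm in the other 6, and Th itself was at 36.9 cpm, 14.5 in M3578, 14.2 in M3677 and 2.59 to 6.94 in the others. These Hox, Slc17a7 and olfactory values were looked at after the data were seen, and their part in the differences between regions was not tested. Results that rest on M3587 or M3576 are given with and without it.

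**Figure D1:**
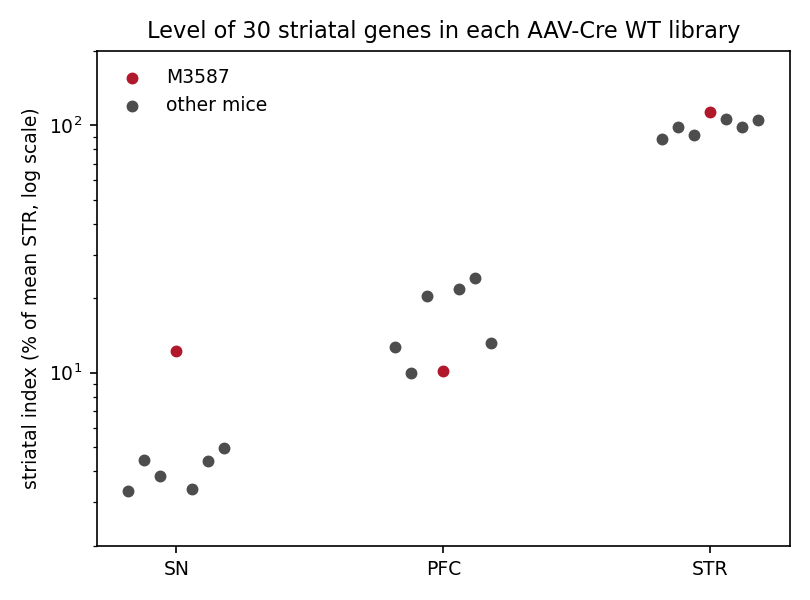
Striatal index of each AAV-Cre WT library by region, as the median over 30 striatal genes of the level relative to the mean STR library (%, log axis), 1 point per library and M3587 in red. The SN library of M3587 sits at 12.3%, above the 3.34% to 4.95% of the other SN libraries and within the range of PFC.

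The regions differed in most genes. Of 14797 genes, 11011 (74.4%) were called, 5603 (37.9%) higher and 5408 (36.5%) lower in SN, and the median log2 fold change over all genes was 0.02. A test against a change of 2-fold called 1807 genes (12.2%), 842 higher (5.69%) and 965 lower (6.52%) in SN. In 6147 genes (41.5%) the regions did not overlap. Being called is therefore the common state of a gene here, and counts of list members are to be read beside these shares.

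The genes with the highest log2 fold changes in SN included several transcription factors, beside a transporter and a receptor subunit of dopamine neurons. En1, a homeobox factor that dopamine neurons need to survive, had 5832 counts over the SN libraries and 0 over the PFC libraries, at least 1542-fold higher in SN against a floor of 3 counts over the group. The forkhead factor Foxa1 was at least 894-fold higher, Lmx1a, which specifies dopamine neuron progenitors, at least 486-fold, and Foxa2 at least 283-fold, each with 0 counts in PFC. Sim1, a bHLH-PAS factor of hypothalamus and midbrain (at least 333-fold), and the homeobox factor Uncx (at least 239-fold) also had 0 PFC counts. Irx2, an Iroquois homeobox factor, had 3212 counts in SN and 2 in PFC, a ratio of 1274 with a 95% counting interval of 352 to 10520, and in SN it was at 59.9 cpm in M3587 and 10.2 cpm in the lowest library. The log2 fold change of Irx2 was 9.66 ± 0.24, and 10.31 without M3649. Slc6a3 (10.01 ± 0.30) and Chrna6, a nicotinic receptor subunit of dopamine neurons (9.87 ± 0.18), were also among the highest. All of these were higher in 7 of 7 mice.

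The genes lowest in SN included factors and a transporter of cortical neurons beside genes of other kinds. 9130024F11Rik, a transcript of unknown function, had 1518 counts in PFC and 3 in SN, a ratio of 638 (218 to 3098). Tbr1, a T-box factor of deep layers, had a log2 fold change of -7.20 ± 0.15 and was 147-fold lower. The zinc finger factor Ovol2 had 506 counts in PFC and 1 in SN, a ratio of 638 (114 to 25253) and a log2 fold change of -8.44. The count in SN was that of M3587. Without that mouse no SN count was left, so the fitted value there (-9.40) is not an exact fold. Igfn1 (-6.60 ± 0.15), Mei1 (-6.80 ± 0.32), Gm11549 (-6.75 ± 0.26, and -7.49 without M3578), the muscle-type creatine kinase Ckm (-6.92 ± 0.41, -8.01 without M3587 and -7.57 by DESeq2), Slc17a7 (-5.63 ± 0.73) and the potassium channel Kcnh3 (-5.60 ± 0.44) were also among the lowest. In each of these genes SN was lower in 7 of 7 mice.

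**Figure D2:**
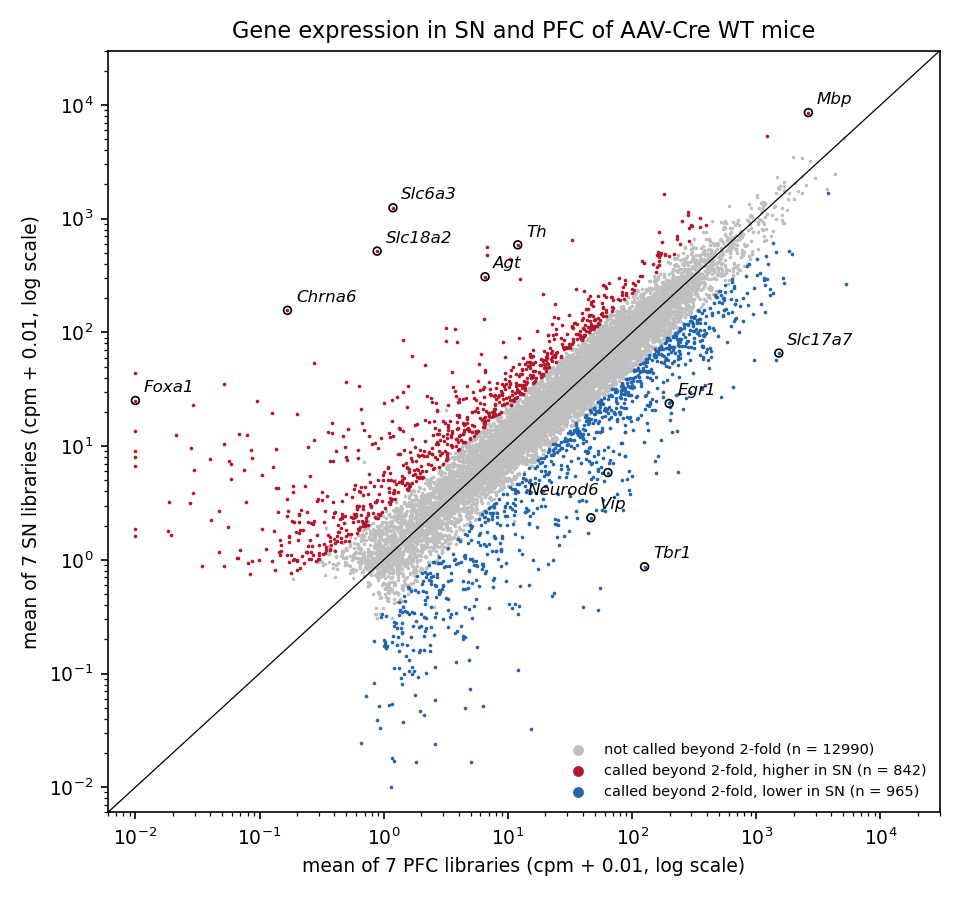
Mean expression in the 7 PFC libraries (x axis) and the 7 SN libraries (y axis) of each of the 14797 genes tested, in cpm with 0.01 added on log axes, 1 point per gene and the line of equality in black. The 842 genes called more than 2-fold higher in SN (red) reach farther from the line than the 965 called lower (blue), and points at the left edge had no count in PFC.

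Genes of dopamine synthesis, packaging and reuptake were higher in SN as a group. All 9 listed were called higher, 7 of them beyond 2-fold, with a median log2 fold change of 4.34 (0.02 over all genes). Th had a log2 fold change of 5.89 ± 0.46 (adjusted p = 4.40e-07) and was 59.5-fold higher. Ddc, which turns L-DOPA into dopamine, was at 323, 445 and 660 cpm in SN and at 5.46, 6.86 and 9.45 cpm in PFC, 69.7-fold higher (6.12 ± 0.11, adjusted p = 1.57e-11). Slc18a2, the vesicular monoamine transporter, was at 364, 475 and 698 cpm in SN and at 0.592, 0.807 and 1.53 cpm in PFC, 577-fold higher (9.17 ± 0.14, adjusted p = 1.02e-11). For Slc6a3 the fold was 1032 (adjusted p = 3.57e-10). In each of these 4 genes the regions did not overlap, SN was lowest in M3587, and SN was highest in M3649. In PFC, Th and Slc6a3 spread more between mice than in SN, and both were highest in M3576, and without that mouse the log2 fold change of Slc6a3 was 10.65.

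Per kilobase of exon, the median SN levels of Slc6a3 (349 cpm per kb) and Th (321) were close, above Ddc (213) and Slc18a2 (125). In PFC the same scale put Th at 4.03, Ddc at 3.28, Slc6a3 at 0.222 and Slc18a2 at 0.212 cpm per kb. The order in PFC was therefore led by enzymes rather than transporters. The enzymes of the cofactor tetrahydrobiopterin split by step. Gch1, which starts its synthesis, was 20.3-fold higher in SN (4.34 ± 0.18), while Pts and Spr, which finish it, differed by 0.33 ± 0.07 and 0.50 ± 0.08. Of the recycling enzymes, Pcbd1 was higher by 2.59 ± 0.10 and Qdpr, which is also abundant in oligodendrocytes, by 1.26 ± 0.07.

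Enzymes that break dopamine down were higher in SN in 4 of 5 cases, with a median of 0.81. Aldh1a1, the aldehyde dehydrogenase of a ventral subset of dopamine neurons, was at 426, 637 and 808 cpm in SN and at 22.8, 30.6 and 46.0 cpm in PFC (4.31 ± 0.11), without overlap. The monoamine oxidases Maoa (1.15 ± 0.06) and Maob (0.81 ± 0.05) and the mitochondrial Aldh2 (0.33 ± 0.07) were higher too.

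**Figure D3:**
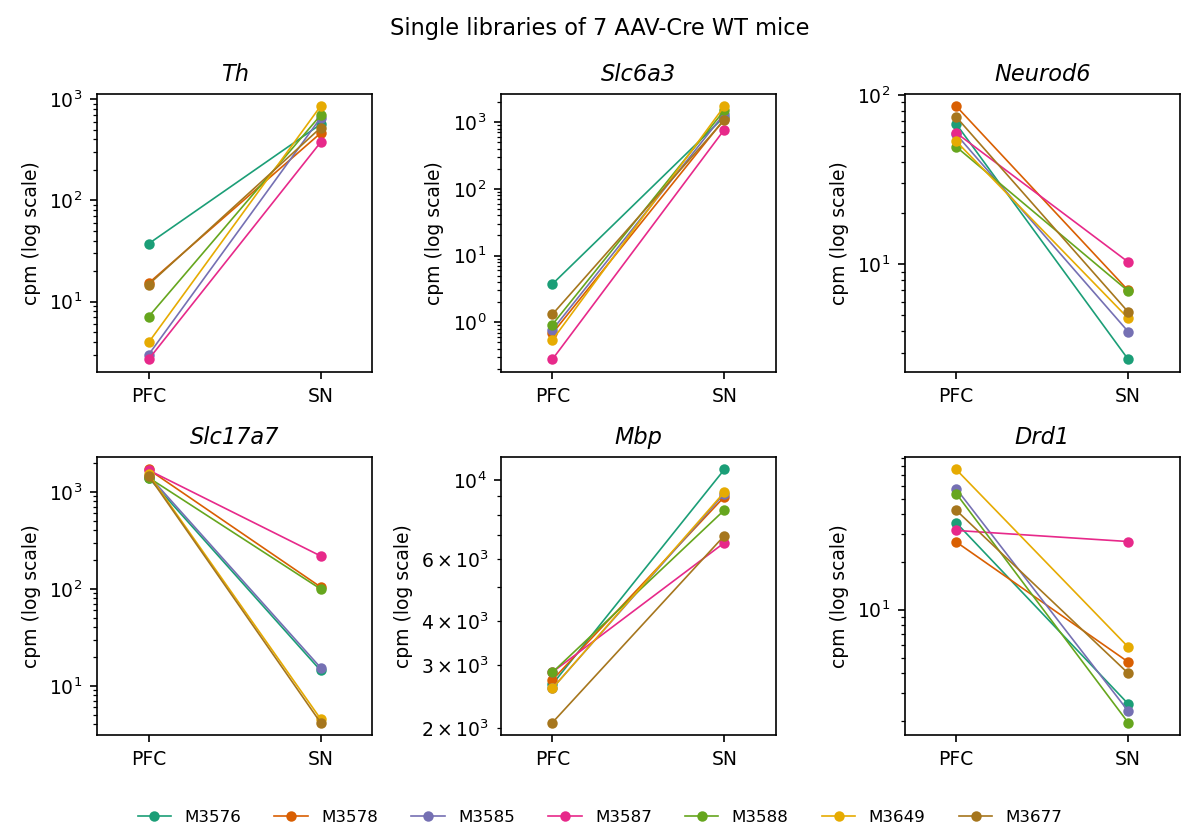
Levels of 6 genes in each PFC and SN library of the 7 AAV-Cre WT mice, in TMM-scaled cpm on log axes, lines joining the libraries of a mouse. Th and Slc6a3 are higher in every SN library, Drd1 in SN is highest in M3587, and Slc17a7 in SN spreads from 4.18 to 218 cpm.

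Transcription factors of dopamine neurons were called higher in SN in 10 of 10 cases, 8 beyond 2-fold, with a median of 6.49 that stayed at 6.49 with genes at 0 set to their bounds. Pitx3, required for nigral dopamine neurons, was at 4.70, 7.48 and 10.1 cpm in SN and at most 0.186 cpm in PFC (7.27 ± 0.37, and 8.02 without M3587). En2 (4.58 ± 0.24), Lmx1b (5.70 ± 0.27) and Otx2 (4.06 ± 0.16), the last a marker of the ventral tegmental area and also of choroid plexus, were higher without overlap. Nr4a2, also called Nurr1, is expressed in deep cortex as well as in dopamine neurons, and was at 46.7, 66.2 and 81.3 cpm in SN and 23.5, 29.2 and 39.1 cpm in PFC (1.04 ± 0.11). Sox6, which marks nigral dopamine neurons and also interneurons and oligodendrocyte precursors, differed by 0.25 ± 0.06, and its regions overlapped. The factors shared with cortical cells thus differed least.

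Of 22 other genes of dopamine neurons, 15 were called higher and 4 lower, with a median of 2.69. Chrnb3, a nicotinic subunit that joins Chrna6, was 60.8-fold higher (5.93 ± 0.20). Dlk1, a membrane protein of the Notch family of ligands, was higher by 5.53 ± 0.23, Sncg (gamma-synuclein) by 4.76 ± 0.17, the neurokinin receptor Tacr3 by 4.58 ± 0.16 and the neurotensin receptor Ntsr1 by 3.19 ± 0.15. Among those lower were Cck (-3.01 ± 0.12), Vip (-4.34 ± 0.18) and Lpl (-0.95 ± 0.19). Cck and Vip are peptides that cortical interneurons also make, Lpl is a lipase of many cell types, and Lpl is outside the rule for named genes and was added after its value was seen.

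GDNF signals through Gfra1 and the receptor tyrosine kinase Ret, and both were higher in SN. Ret (Entrez 19713, chr6:118151748-118197744) was at 386, 497 and 784 cpm in SN and at 5.44, 6.80 and 9.13 cpm in PFC, 82.6-fold higher (6.37 ± 0.13, adjusted p = 3.77e-11). Gfra1 was at 81.2, 114 and 140 cpm in SN and at 44.6, 59.8 and 61.6 cpm in PFC (0.97 ± 0.07). The regions did not overlap in either gene, and M3587 was the lowest SN library in both. The co-receptors for other ligands of the family went the other way, Gfra2 (neurturin) with -0.82 ± 0.13 and Gfra4 (persephin) with -1.11 ± 0.05. Of 9 genes of the family 5 passed the filter, 2 called higher and 3 lower.

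Gdnf itself (Entrez 14573, chr15:7810048-7837580) was near the limit of detection in both regions. It was at 0.309, 1.04 and 1.20 cpm in PFC (85 counts in all) and at 0.0983, 0.225 and 1.03 cpm in SN (45 counts, 22 of them from M3587). The log2 fold change was -1.48 ± 0.44 (adjusted p = 0.0111), and -2.07 ± 0.35 (adjusted p = 0.000349) without M3587. In STR libraries of these mice Gdnf was at 5.45, 6.74 and 7.45 cpm of the library total. The SN library with the most Gdnf was thus the library with the most striatal genes, and the part of striatal tissue in its Gdnf counts was not tested.

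Dopamine receptors went in different directions. Drd2, an autoreceptor on dopamine neurons and a receptor of striatal neurons, was at 63.6, 66.6 and 96.4 cpm in SN and at 12.9, 21.9 and 49.0 cpm in PFC, 2.91-fold higher (1.54 ± 0.16) without overlap. Drd1 was at 26.7, 42.3 and 76.3 cpm in PFC and at 1.95, 3.98 and 26.9 cpm in SN, the highest SN value being that of M3587. Its log2 fold change was -3.17 ± 0.46, and -3.74 ± 0.24 without M3587, when the regions no longer overlapped. In PFC Drd1 and Drd2 were highest in M3649 and lowest in M3578, the PFC libraries with the highest (24.1%) and lowest (9.97%) striatal index. Drd1 is itself among the genes of that index, so for Drd1 this match is partly built in. Drd5 was lower by -0.67 ± 0.18, and Drd3, at 0.835 and 1.02 cpm (medians of PFC and SN), was not called (adjusted p = 0.972), its sign turning with the mice left out.

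Both regions hold GABA neurons. The median difference of GABA genes was smaller than that of the genes of dopamine synthesis, packaging and reuptake. Of 7 genes tested 6 were higher and 1 lower in SN, with a median of 0.61. Gad2, which makes GABA for synaptic release, was at 222, 294 and 425 cpm in SN and 185, 237 and 290 cpm in PFC (0.38 ± 0.08), and Slc32a1, the vesicular GABA transporter, differed by 0.61 ± 0.13, both with overlap. Gad1 was lower by -0.24 ± 0.11 (adjusted p = 0.0644). That call was lost without M3587 (-0.21, adjusted p = 0.129), M3585 (-0.24, adjusted p = 0.115) or M3677 (-0.13, adjusted p = 0.141). It was also lost without the block (-0.21), with upper-quartile scaling (-0.20) or with all 3 regions in the fit (-0.23). The larger differences were in genes that astrocytes use too. Slc6a11, an astrocytic GABA transporter, was 3.91-fold higher, the glycine transporter Slc6a9 3.59-fold and the GABA transaminase Abat 1.92-fold, none with overlap.

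The vesicular glutamate transporters differed in opposite directions. Slc17a6, found in thalamus, subthalamus and midbrain, was at 202, 262 and 404 cpm in SN and at a median of 12.2 and at most 14.6 cpm in PFC, 22.4-fold higher (4.49 ± 0.16). Slc17a7 was at 1398, 1472 and 1700 cpm in PFC and at 4.18, 15.4 and 218 cpm in SN, and its log2 fold change of -5.63 became -4.52 without the block and -6.13 ± 0.67 without M3587. Neither gene overlapped between regions. Of 28 genes for glutamate receptors and transporters 8 were higher and 17 lower (median -0.43). The NMDA receptor subunits Grin1 (-1.01 ± 0.06), Grin2a (-1.18 ± 0.12) and Grin2b (-1.33 ± 0.15) were lower, while Grin2d (1.72 ± 0.11) and Gria4 (0.46 ± 0.05) were higher.

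Genes of cortical neurons were lower in SN by a wide margin. Among 31 cortical and telencephalic factors 27 were lower and 2 higher (median -1.80), and among 34 genes of cortical layers and excitatory neurons 28 were lower and 4 higher (median -1.78). Neurod6 was 11.1-fold lower (-3.48 ± 0.20, adjusted p = 3.28e-08). Camk2a, the calcium-dependent kinase of excitatory synapses, was at 4598, 5470 and 5922 cpm in PFC and at 159, 233 and 459 cpm in SN (-4.38 ± 0.19). Mef2c (-4.28 ± 0.12), Lamp5 (-4.12 ± 0.22) and the calmodulin-binding protein Nrgn (-4.19 ± 0.25) fell in the same range, none with overlap. M3578 was the highest SN library for Lhx2 (-4.74 ± 0.45, and -5.57 without it) and for the deep-layer factor Fezf2 (-4.55 ± 0.47, -5.28 without it and -5.63 by DESeq2). The members higher in SN were Foxp2 (0.95 ± 0.09), Etv1 (0.61 ± 0.11), Tshz2 (0.56 ± 0.06) and Cdh13 (0.24 ± 0.06) and Fam84b (0.29 ± 0.11), the last outside the rule for named genes and added after its value was seen.

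Genes of cortical interneurons differed in both directions, more of them lower in SN. Of 29 genes 19 were lower and 8 higher in SN (median -1.49). Sst (somatostatin) was at 135, 164 and 232 cpm in PFC and at 17.4, 26.0 and 43.9 cpm in SN (-2.74 ± 0.18), and Npy (-4.17 ± 0.22), Lhx6 (-3.69 ± 0.37) and Dlx1 (-3.63 ± 0.22) were lower as well. Pvalb, a calcium buffer of fast-firing neurons, was higher in SN at 49.0, 59.3 and 101 cpm against 32.8, 38.3 and 48.7 cpm (0.71 ± 0.13), just without overlap. Prox1 (1.55 ± 0.10), Erbb4 (0.91 ± 0.08) and Nkx2-1 (4.77 ± 0.21), which hypothalamic neurons also express, were higher. Cholinergic genes were lower in SN in 3 of 4 cases, among them Chat, the acetylcholine-making enzyme (-1.75 ± 0.31), whose PFC level was also lowest in M3578.

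Striatal projection neuron genes were lower in SN than in PFC in 28 of 30 cases, with a median of -1.66. Without M3587 the counts were 29 of 30 and the median -2.05. Adora2a, the adenosine receptor of the indirect pathway, was at 0.885, 1.61 and 37.7 cpm in SN, highest in M3587, and at 16.9, 28.3 and 77.9 cpm in PFC (-3.41 ± 0.63, -4.23 ± 0.27 without M3587 and -2.44 without the block). In this gene the regions overlapped with M3587 and did not overlap without it. Tac1, the precursor of substance P, was not called with all mice (-0.39 ± 0.24, adjusted p = 0.178). It was called lower without M3578 (adjusted p = 0.0825), M3587 (adjusted p = 0.0913) or M3677 (adjusted p = 0.0791), with all 3 regions in the fit and by the likelihood ratio test.

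Genes known from cell groups near the SN were also measured, and their source in the tissue was not tested. Of 27 midbrain and diencephalic patterning factors 25 were higher and 1 lower in SN (median 4.77), among them Gata3, a factor of midbrain GABA neurons, with 1275 counts in SN and 2 in PFC, a ratio of 506 (140 to 4179). Tph2, the serotonin-making enzyme of the raphe, was at 3.27, 8.21 and 53.5 cpm in SN, highest in M3588 and M3585, and at 0.288, 0.619 and 0.927 cpm in PFC. Its log2 fold change was 4.67 ± 0.49, and 4.01 without M3588. The serotonin transporter Slc6a4 moved likewise from 7.48 ± 0.39 to 6.82 without M3588. Over the whole list of serotonin neuron genes, 4 of 7 tested were higher and 3 lower in SN. Those higher included En1 and Gata3, which are on this list but are named above for dopamine neurons and midbrain GABA neurons. Of 8 hypothalamic peptide genes that passed the filter 7 were higher, among them Pmch, the precursor of melanin-concentrating hormone, at 1.41, 1.90 and 14.7 cpm in SN, highest in M3677 (4.06 ± 0.51, and 3.31 without M3677). Of 18 thalamic and subthalamic genes 11 were higher and 4 lower (median 1.29), with Cbln1, a synapse organiser, higher by 3.39 ± 0.22. Different SN libraries were thus highest for Tph2 and for Pmch.

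With all mice most olfactory bulb genes were lower in SN, and the number depended on M3576. Of 12 genes 8 were lower and 3 higher in SN (median -1.47), and without M3576, a setting chosen after the data were seen, 5 of 11 were lower and 3 higher (median -0.57). Summed without Th, the list was at 97.0 to 151 cpm of the library total in STR, within the range of PFC. The 3 higher with all mice were Th, Barhl2 (4.44 ± 0.29) and Lbhd2 (0.76 ± 0.18). Eomes, a factor of bulb projection neurons, was at 0.0927, 1.73 and 17.1 cpm in PFC, highest in M3576, and at 0 to 0.225 cpm in SN (-5.99 ± 0.63). Without M3576 its log2 fold change was -5.30, and without M3585 -6.98. The PFC libraries in which Eomes was high (M3576, M3578 and M3677) were those in which Th was high.

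Myelin genes were higher in SN almost throughout. Of 40 genes of myelin and mature oligodendrocytes 39 were called higher and 0 lower, 32 beyond 2-fold, with a median of 1.67. Mbp, a main protein of compact myelin, was at 6661, 8979 and 10721 cpm in SN and at 2070, 2655 and 2873 cpm in PFC, 3.25-fold higher (1.70 ± 0.09, adjusted p = 1.67e-08), without overlap. Klk6, a protease of oligodendrocytes, differed most at 12.6-fold (3.66 ± 0.17). Ptgds, a prostaglandin synthase that meninges also make, was the gene not called (-0.37 ± 0.29), with 3063 cpm in SN of M3578 against a median of 661, and without M3578 it was lower in SN (-0.68, adjusted p = 0.00378), as it was by the likelihood ratio test, while its sign turned without the block (0.03). Precursor genes moved less, 11 of 16 higher and 1 lower (75.0% called, beside 74.4% of all genes) with a median of 0.48, and Pdgfra, their defining receptor, differed by 0.25 ± 0.06.

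Astrocyte genes did not move as a block. Of 23 genes 14 were higher and 5 lower (82.6% called), with a median of 0.23. Of 15 further genes chosen as graded between regions in astrocytes 9 were higher and 6 lower, with a median of 0.42. Agt, angiotensinogen, of this second list, which astrocytes make in the brain stem and diencephalon, was at 219, 314 and 364 cpm in SN and at 5.57, 6.34 and 8.51 cpm in PFC, 47.2-fold higher (5.56 ± 0.10, adjusted p = 1.57e-11). On the same list the matrix protein Sparc was 9.15-fold higher (3.19 ± 0.07), and Mfge8 (-1.95 ± 0.10) and Chrdl1 (-3.00 ± 0.11), which cortical astrocytes express, were lower. On the first list Gfap, the astrocyte filament, was 4.58-fold higher (2.20 ± 0.12), the water channel Aqp4 was higher by 1.41 ± 0.13, and the glutamate transporters Slc1a2 (-1.03 ± 0.07) and Slc1a3 (-0.82 ± 0.07) were lower. Aldh1l1, found in astrocytes of all regions, was at medians of 79.3 cpm in SN and 76.3 cpm in PFC and was not called (adjusted p = 0.987).

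Vessel genes were mostly not called, and microglia genes were called about as often as all genes. Of 26 endothelial, mural and meningeal genes 3 were higher and 2 lower, 19.2% called against 74.4% of all genes. Cldn5, a tight junction protein, was not called (0.17 ± 0.11), though it was called higher without M3588 (0.28, adjusted p = 0.0250) and by the likelihood ratio test, and Pdgfrb of pericytes was lower by -0.61 ± 0.06. Among 22 microglia genes 14 were lower, 1 of them beyond 2-fold, and 2 higher (72.7% called) with a median of -0.34. Cx3cr1 (-0.35 ± 0.10), P2ry12 (-0.40 ± 0.10) and Tmem119 (-0.42 ± 0.09), surface proteins of resident microglia, were lower with overlapping regions, and Ctss (0.32 ± 0.08), a lysosomal protease, was higher. The medians of both lists were nearer 0 than that of the myelin genes.

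**Figure D4:**
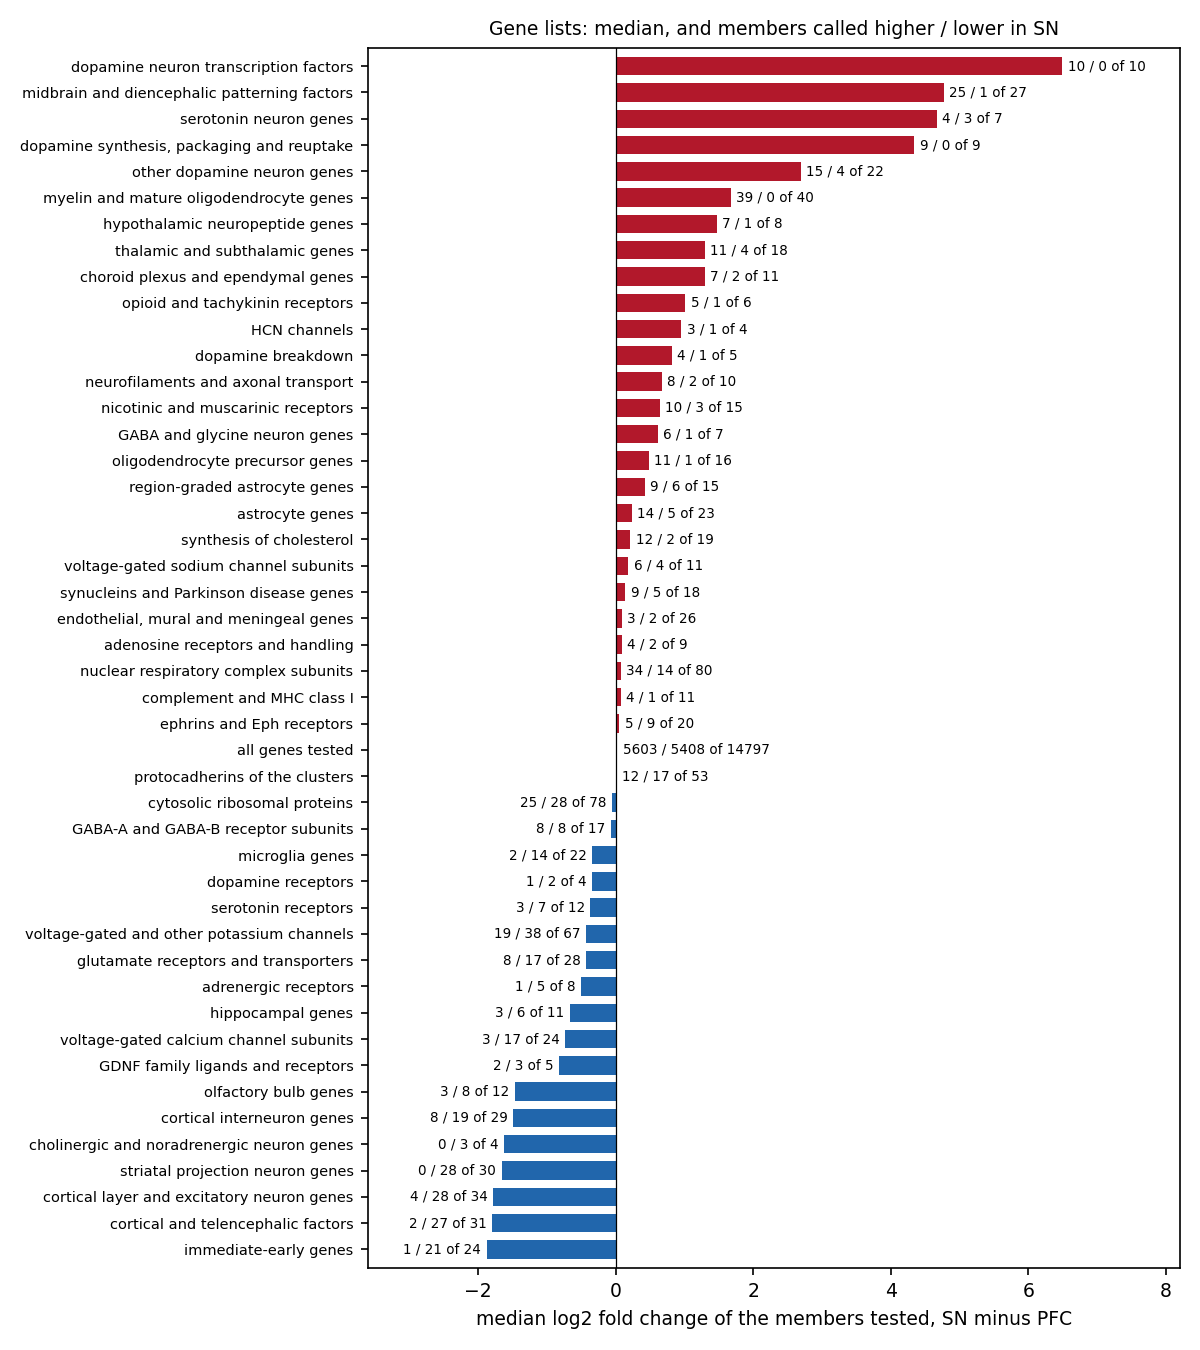
Median log2 fold change (SN minus PFC) of the members tested of each gene list, with the members called higher / lower in SN and the members tested beside each bar. Dopamine neuron transcription factors (6.49) and immediate-early genes (-1.88) stand at the ends, and all 14797 genes (0.02) near the middle.

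Genes that neurons switch on with activity were lower in SN. Of 24 immediate-early genes 21 were lower and 1 higher, with a median of -1.88. Egr1, an activity-driven zinc finger factor, was at 142, 180 and 282 cpm in PFC and at 10.6, 22.9 and 48.0 cpm in SN (-3.15 ± 0.14), without overlap. Arc, a regulator of synaptic AMPA receptors, differed by -2.13 ± 0.22 and Npas4 by -2.24 ± 0.22. Fos overlapped between regions (-0.66 ± 0.14) and was not called without the block, where its log2 fold change was -0.72 (adjusted p = 0.159). Jun was higher (0.40 ± 0.10), and Bdnf was not called (0.17 ± 0.12), though it was called higher without M3576 (0.27, adjusted p = 0.0356). M3587 was the highest SN library in 15 of the 24 genes (62.5%), where it was the highest in 15.8% of all genes tested. Without M3587, 20 of the 24 genes were lower and 1 higher, with a median of -1.91.

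Channel and receptor families held genes of both directions. Of 67 potassium channel genes 38 were lower and 19 higher (median -0.43), with Kcnh1 (-2.58 ± 0.07), an ether-a-go-go channel, lower, and 17 of 24 calcium channel genes were lower (median -0.74), Cacng3 by -2.60 ± 0.07. Pacemaker HCN channels went up, with Hcn4 at 17.1 against 4.54 cpm (medians, 2.11 ± 0.14), Hcn2 at 238 against 127 cpm (0.84 ± 0.08) and Hcn3 (1.07 ± 0.10) higher. Scn9a (2.88 ± 0.16), a sodium channel of sensory and neuroendocrine cells, was higher. The muscarinic receptor of dopamine neurons Chrm5 was higher by 4.63 ± 0.21, and the cortical and striatal forms Chrm1 (-4.25 ± 0.23) and Chrm4 (-3.16 ± 0.21) were lower.

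The GABA receptor subunit Gabrq, found in monoamine nuclei and hypothalamus, was higher by 4.39 ± 0.16, while Gabrd, the extrasynaptic delta subunit, was lower by -4.95 ± 0.40 (-5.61 without M3587). Of serotonin receptors Htr2c was 3.10-fold higher and Htr2a lower (-1.34 ± 0.12). The mu opioid receptor Oprm1 (1.71 ± 0.18) and the kappa receptor Oprk1 (1.18 ± 0.09) were higher, and the delta receptor Oprd1 was lower (-1.59 ± 0.22). Receptors for the same transmitter thus differed in opposite directions.

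Neurofilaments of large axons were higher in SN, with Nefh at 144, 185 and 285 cpm against 59.3, 66.4 and 91.7 cpm in PFC (1.55 ± 0.15), Nefm by 0.84 ± 0.14 and Nefl by 0.65 ± 0.10. Prph, a filament of brain stem and peripheral neurons, was higher by 3.69 ± 0.26. Genes used by all cells moved little. Of 80 nuclear genes of respiratory complexes 34 were higher and 14 lower (60.0% called) with a median of 0.07, and of 78 ribosomal protein genes 25 were higher and 28 lower (67.9% called) with a median of -0.06, both shares below that of all genes. Copies of ribosomal protein genes elsewhere in the genome can share their reads, so single values of this family are uncertain.

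Genes linked to Parkinson disease spread around 0, 9 of 18 higher and 5 lower (77.8% called, close to the share of all genes) with a median of 0.14. Lrrk2, a kinase, was lower in SN (-1.20 ± 0.12), Uchl1, a neuronal ubiquitin hydrolase, was higher (0.37 ± 0.05), and Pink1 (0.08 ± 0.06) and Park7 (0.04 ± 0.05) were not called, Pink1 being called higher with upper-quartile scaling (0.12, adjusted p = 0.0866).

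Promoter sequences from RefSeq (build GRCm38.p6, 250 bases before to 50 after the start of a gene) are shown for 3 enzymes and transporters that were high together in SN. They were searched on both strands for AAAGGTCA, read as TGACCTTT on the other strand, the site of Nr4a factors such as Nr4a2, and TAATCC, read as GGATTA on the other strand, the core site of bicoid-type homeodomain factors such as Pitx3. AAAGGTCA was in the windows of 1.70% of the 27025 genes with a window and TAATCC in those of 8.14%. Among the 11506 genes tested that had a window, the shares were 1.23% and 6.98%. Of 41 genes in the 3 dopamine neuron lists 29 had a window, 2 of them with AAAGGTCA and 3 with TAATCC. The windows of Th (chr7:142899946-142900245, minus strand) and Slc6a3 (chr13:73536497-73536796, plus strand) held neither. The upstream of 2 windows of Ddc (chr11:11898095-11898394, minus strand) held TGACCTTT, in capitals. The other Ddc window (chr11:11890359-11890658, minus strand) held neither and is not shown. A match is not a site, and a window without one says nothing of the factor.
Th: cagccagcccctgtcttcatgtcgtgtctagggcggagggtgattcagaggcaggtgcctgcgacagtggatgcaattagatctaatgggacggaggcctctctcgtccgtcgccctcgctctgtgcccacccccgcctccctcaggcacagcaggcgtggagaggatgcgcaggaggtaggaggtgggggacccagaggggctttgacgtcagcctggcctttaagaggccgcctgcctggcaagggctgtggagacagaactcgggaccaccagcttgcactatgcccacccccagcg
Slc6a3: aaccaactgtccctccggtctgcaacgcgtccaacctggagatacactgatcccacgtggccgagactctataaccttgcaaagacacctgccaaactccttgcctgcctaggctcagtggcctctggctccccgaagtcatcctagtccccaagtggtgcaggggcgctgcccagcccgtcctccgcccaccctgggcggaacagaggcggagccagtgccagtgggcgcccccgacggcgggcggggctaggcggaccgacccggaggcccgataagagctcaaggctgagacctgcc
Ddc: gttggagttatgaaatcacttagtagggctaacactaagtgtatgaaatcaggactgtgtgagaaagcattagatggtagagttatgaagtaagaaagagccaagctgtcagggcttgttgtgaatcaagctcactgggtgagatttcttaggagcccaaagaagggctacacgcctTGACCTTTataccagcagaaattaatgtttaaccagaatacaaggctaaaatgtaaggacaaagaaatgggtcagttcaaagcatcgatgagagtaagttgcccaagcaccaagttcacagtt

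The same comparison was made in mice that share no library with these. In AAV-Cre HET mice (wt/cKU, 7 pairs) 1995 genes (13.5%) were called beyond 2-fold, in AAV-Cre HOM mice (cKU/cKU, 8 pairs) 1956 (13.2%), and in Nestin-Cre WT mice, 2 months old and without surgery (5 pairs), 2226 (15.3%). Of the WT calls beyond 2-fold that were tested in both fits, 1788 of 1788 had the same direction in HET, 1784 of 1784 in HOM and 1718 of 1723 in Nestin-Cre mice. Those also called beyond 2-fold were 1631 in HET (91.2% of the WT calls and 81.8% of the HET calls), 1625 in HOM (91.1% and 83.1%) and 1415 in Nestin-Cre mice (82.1% and 63.6%). Th had log2 fold changes of 5.33 ± 0.41 in HET, 5.89 ± 0.41 in HOM and 5.69 ± 0.51 in Nestin-Cre mice, Slc6a3 10.22 ± 0.28, 10.35 ± 0.24 and 9.84 ± 0.31, and Neurod6 -3.96 ± 0.14, -3.77 ± 0.25 and -4.09 ± 0.59. The 3 markers thus held in each set of mice.

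Whether the regional difference itself depended on the cKU allele was tested by the interaction of region and genotype in all 22 AAV-Cre mice. By edgeR, 0 of 15199 genes (0.0%) were called for HET and 0 of 15199 (0.0%) for HOM, with unadjusted p under 0.05 in 2041 and 2163 genes, where about 760 would be under it with no difference in any gene, and smallest adjusted p of 0.271 and 0.180. No gene was thus called for a difference between genotypes in the SN to PFC contrast, though more genes than that number had a small unadjusted p.

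Between the 2 models the contrast differed in many genes. In WT mice with both libraries, 7 of AAV-Cre and 5 of Nestin-Cre, 6378 of 15035 genes (42.4%) were called for the interaction of region and model, 3258 with the larger log2 fold change in AAV-Cre mice and 3120 with the smaller. Th (0.24, adjusted p = 0.826) and Slc6a3 (0.18, adjusted p = 0.819) were not called, Ret was (0.77, adjusted p = 0.0169), and so was Agt in the other direction (-0.76, adjusted p = 0.0135). The models differ at once in age, in Cre and its delivery and in surgery, which cannot be told apart.

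Levels are given for 4 genes out of the 5 with the smallest p in each direction. They are medians in cpm of the library total over all libraries labelled WT. In Nestin-Cre mice these are 8 of PFC and 6 of SN, more than the 5 pairs tested. The 8 include PFC of M4575, a mouse labelled HOM in its other regions. The potassium channel Kcnq3 was at medians of 24.7 cpm in SN and 29.1 in PFC of AAV-Cre mice and at 7.90 and 31.5 in Nestin-Cre mice, a difference between contrasts of 1.78 ± 0.12 (adjusted p = 3.91e-06). For the adhesion receptor Celsr2 the medians were 223 and 297 cpm against 111 and 285 (1.05 ± 0.08). Rps24, a ribosomal protein, was at 196 and 175 cpm against 422 and 144, a difference of -1.26 ± 0.11, and Pfdn5, a prefoldin subunit, at 116 and 121 against 217 and 101 (-1.06 ± 0.09). In all 4 genes the medians of the models lay farther apart in SN than in PFC.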

How the data were processed

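RNA of 7 SN and 7 PFC libraries was analysed from the table of read counts per gene that the authors deposited. Per the labels, stranded poly(A) libraries (TruSeq, 75-cycle single-end runs) were read out with bcl2fastq 2.20.0.422, aligned to mm10 with STAR 2.5.2b and counted in genes with featureCounts 1.5.1. The counts are whole numbers and were taken as not normalized. Of 24412 genes, 6 have no symbol.

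The filter kept genes of 1 cpm or more in 3 or more of the 14 libraries. They were scaled with TMM factors and fitted in R 4.3.3 with edgeR 4.0.16 (estimateDisp, glmQLFit with trended dispersion in legacy mode, glmQLFTest, two-sided, region with the mouse as a block). A second test (glmTreat) asked for a change over 2-fold. Adjusted p is Benjamini-Hochberg over all genes of a fit, and genes were called under 0.1. Standard errors come from the log2 fold change and its F value. Gene levels are TMM-scaled cpm, while list sums, the striatal index and values said to be of the library total are unscaled cpm. Intervals and floors cover counting error only, with 3 counts over the 7 libraries of a region as the floor.

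Pairing came from the mouse number in the labels, both libraries being of the same mouse. After removing region means, SN and PFC of the same mouse correlated across genes with a median r of 0.201 (0.067 to 0.270), different mice with -0.032, and all 7 SN libraries were closest to their own PFC.

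Named genes are Th, Slc6a3, Neurod6 and Gdnf, the 10 highest and 10 lowest log2 fold changes among genes called beyond 2-fold with at least 5 cpm in the higher region and the same direction in all 7 mice, key members of 46 gene lists with every member of lists of 10 or fewer, up to 3 members against the direction of a list, 5 genes a direction for each interaction and the 5 smallest p of each gene family. Some genes this rule covers are left out here. Lists and members were chosen with earlier results of these data known.

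Alternatives were no block, leaving out each mouse, DESeq2 1.42.0 and its size factors in edgeR, upper-quartile scaling, no filter, all 3 regions in the fit, the likelihood ratio test and the newer mode of edgeR, and an adjusted p under 0.05.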

Additional observations from a re-analysis of the deposited data

Results flagged for a closer look

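Libraries apart within their region were looked for in 16 groups of 7 libraries, for 7 genes given by library and the striatal index. A rule of this kind picks about 1 in 20 separate groups by chance. It picked 4 here, but they come from 2 libraries and are not separate. Their count is therefore not compared with that rate. In PFC these were Th (37.3 cpm) and Slc6a3 (3.74 cpm) in M3576, the library also highest in olfactory bulb genes. In SN they were Drd1 (26.9 cpm) and the striatal index (12.3%) in M3587, the library noted for striatal genes. Drd1 is among the genes of the index, so these 2 are not separate, and they repeat what was noted of this library.

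Regional differences that were not the same in AAV-Cre and Nestin-Cre mice were largest by p in 10 genes. The log2 difference, AAV-Cre minus Nestin-Cre, was 1.78 in Kcnq3, 1.05 in Celsr2, 1.78 in Tmem178b, 1.32 in Uhmk1 and 1.27 in Fat3, and -1.06 in Rps25, -1.26 in Rps24, -1.35 in Rpl35, -1.06 in Pfdn5 and -1.11 in Rpl31. Reads of ribosomal protein genes can be shared with copies elsewhere in the genome. Age, Cre delivery and surgery differ between the models together, and the cause was not tested.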

How the results depend on the processing

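The number of genes called ran from 10217 (adjusted p under 0.05) to 11764 (no filter) around 11011, and was 10875 without the block for pairing and 10683 without M3587. Beyond 2-fold it ran from 1677 to 2088 around 1807, with 1749 without the block and 1809 without M3587. The region by model count was 6378, and 6839 without the block, 6108 without M3587 and 6676 without the block and M4575. Genotype interactions stayed at 0. Among the 149 genes named in the report, signs turned only in genes not called. Aldh1l1 was at 0.01 without M3587, 0.05 without M3588, 0.04 with upper-quartile scaling and 0.01 with no filter, and at -0.03 without M3677. Drd3 was at 0.08 without the block, 0.26 without M3576, 0.08 without M3585, 0.12 without M3588, 0.01 without M3649, 0.02 with upper-quartile scaling and 0.04 in the newer edgeR mode, and at -0.31 without M3677. Ptgds was at 0.03 without the block. Without M3576, an alternative chosen after the data were seen, olfactory bulb genes lower in SN went from 8 to 5. The cause was not tested.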

Other observations

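The limits of the comparison are those of tissue pieces from slices. All 7 mice were injected males of a mixed background, so effects of surgery, virus, sex and age on the regional difference were not measured. SN libraries differed in genes known from neighbouring regions, the source of which was not tested, and striatal genes stood out in M3587. Levels are of RNA over all cells, and neither protein nor single cells were measured. Genes near 0 in a region have folds known only as bounds or wide intervals. Lists were made with knowledge of earlier results and describe rather than test.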
